A study of Mus musculus with 8 samples.

Results

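Mpo, Elane, Prtn3, Ctsg, Prss57, Ms4a3 and Nkg7 are 7 genes known for their expression in early granulocyte and monocyte progenitors, 5 of them encoding proteins of the primary granules. They were taken by symbol from an expression table of 13388 genes, in which all 7 were present, and all 7 passed the filter of at least 1 CPM (a read count scaled for the size of its library) in at least 2 libraries. Prss57 passed that filter only through the cMoP libraries. RNA was sequenced in 8 libraries from bone marrow of wild type mice: Ly6C+ classical monocytes and cMoPs (common monocyte progenitors, the dividing precursors of monocytes), each sorted and kept for 6 h with OP9 or OP9-DLL1 cells. OP9 is a mouse bone marrow stromal line, and OP9-DLL1 is that line displaying the Notch ligand DLL1. The 4 groups, monocytes on OP9, monocytes on OP9-DLL1, cMoPs on OP9 and cMoPs on OP9-DLL1, hold 2 libraries each, with no freshly sorted cells and no cells kept without stroma among them. The labels give the replicates a number without saying that they are separate animals or cultures, so the p-values below measure only the spread between these libraries, which may be technical.

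Primary (azurophilic) granules are the first storage granules a myeloid cell builds, and their proteins are made in a short window at the promyelocyte and early progenitor stages. The peroxidase and the serine proteases are synthesised as precursors and stored. The proteases are trimmed by cathepsin C, and the proteoglycan serglycin takes part in packing. The mRNAs are switched off as cells mature while the proteins persist. Transcription factors of the C/EBP, PU.1, MYB and RUNX families are known to act on the promoters of several of these genes.

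Depth was 47316323 to 62459962 reads per library. The deposited CPM are scaled to an effective library size, 43312372 to 66166903 as worked out from the values, at which 1 read is worth 0.0151 to 0.0231 CPM. That size was below the reads in each monocyte library and above them in each cMoP library. Of 7 genes listed as a check of the Notch response, 4 were measured (Hes1, Spic, Cd22 and Itgax), and Hes5, Hey1 and Heyl were absent. All 4 passed as higher on OP9-DLL1 in both cell types, where 3.36% (monocytes) and 0.464% (cMoPs) of all tested genes did. The list was chosen with earlier results of these data known, so this count is no independent check. Hes1, a repressor induced by Notch, stood at 0.0406 and 11.5 CPM in monocytes on OP9 and OP9-DLL1 and at 0.0493 and 3.03 CPM in cMoPs. The cell labels were set against their markers on OP9, where 28.8% of all tested genes were higher in cMoPs and 27.7% lower. Kit, the receptor of early progenitors, was at 0.0893 CPM in monocytes and 5.45 CPM in cMoPs. The list it comes from was split, with 8 of 19 tested early progenitor genes higher in cMoPs and 8 lower. Of 25 proliferation genes 19 were higher in cMoPs and 0 lower. Of 13 monocyte markers 10 were lower in cMoPs and 3 higher, among them Ly6c2, the gene of the sorting antigen (2193 against 1038 CPM). The monocytes on OP9 were the least alike pair, with 1445 genes more than 2-fold apart between the replicates, against 724 to 804 in the other groups.

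The upstream sequences of the members are shown because these genes are high in the same libraries. RefSeq promoter windows (GRCm38.p6) were found for 6 of the 7 members, Prss57 being the other, and the bases printed first lie before the first exon of the transcript that starts there, 5′ to 3′ on the gene's strand. Capitals mark GAGGAAG, a core recognised by the myeloid factor PU.1, in the 4 members that hold it within 250 bases of the RefSeq start, and ACCACA in Ctsg, the reverse complement of the RUNX core TGTGGT.
Elane, chr10:79886062-79886246, plus strand: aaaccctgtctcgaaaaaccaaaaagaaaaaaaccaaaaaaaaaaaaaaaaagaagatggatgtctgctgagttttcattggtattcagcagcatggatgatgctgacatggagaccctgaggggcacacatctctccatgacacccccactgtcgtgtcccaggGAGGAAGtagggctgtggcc
Prtn3, chr10:79879417-79879613, plus strand: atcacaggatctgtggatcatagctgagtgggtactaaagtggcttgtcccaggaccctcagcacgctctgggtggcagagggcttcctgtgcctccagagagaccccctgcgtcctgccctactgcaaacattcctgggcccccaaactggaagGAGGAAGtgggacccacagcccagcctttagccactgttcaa
Mpo, chr11:87793534-87793580, plus strand: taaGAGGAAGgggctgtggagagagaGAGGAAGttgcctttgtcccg
Ctsg, chr14:56102575-56102824, minus strand: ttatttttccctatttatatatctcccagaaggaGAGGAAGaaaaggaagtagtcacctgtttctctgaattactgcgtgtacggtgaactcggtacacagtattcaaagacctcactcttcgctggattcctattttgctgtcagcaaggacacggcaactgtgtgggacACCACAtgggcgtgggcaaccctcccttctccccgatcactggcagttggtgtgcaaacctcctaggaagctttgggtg

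GAGGAAG (on either strand) occurred in 10.6% of all 32851 RefSeq windows of this length and in 4 of the 6 member windows (Elane, Prtn3, Mpo and Ctsg). In Elane and Prtn3, the neighbouring elastase-family genes, it lies 85 and 95 bases before the RefSeq start, on the coding strand of each. Mpo holds it at 2 places in the 47 bases shown, which end where its annotated transcript starts, 203 bases before the RefSeq start. A short stretch at the annotated start of Elane and Prtn3, within the first exon of Elane and across the start of that of Prtn3, holds the MYB core AACGG in both and the C/EBP core GCAAT in Elane, marked in capitals.
Elane, chr10:79886247-79886274, plus strand: aggatgggGCAATacAACGGcctctggt
Prtn3, chr10:79879604-79879631, plus strand: cactgttcAACGGctcccggcagagctg

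AACGG was in 14.5% and GCAAT in 23.1% of all windows, and each was in 2 of the 6 member windows (AACGG in Elane and Prtn3, GCAAT in Elane and Mpo). TGTGGT, in 14.05% of all windows, was in Ctsg and Nkg7. Ms4a3, the member whose level differed between the stromal lines, held none of these 4 cores. Its window holds 1 match to TGGGAA, the core of the Notch partner RBPJ, on the other strand (capitals). That string was in 1 of the 6 member windows, near the 21.6% of all windows. Its part in the level of Ms4a3 was not tested.
Ms4a3, chr19:11640852-11641101, minus strand: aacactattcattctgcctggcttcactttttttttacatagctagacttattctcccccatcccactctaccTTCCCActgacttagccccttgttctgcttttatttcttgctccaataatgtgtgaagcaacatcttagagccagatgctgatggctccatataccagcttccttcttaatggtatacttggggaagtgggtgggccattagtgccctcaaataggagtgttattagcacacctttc

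These matches describe letters only, and the motifs were picked after the sequences had been read. No binding was measured.

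All 7 genes were higher in cMoPs than in monocytes on both stromal lines, by 34.3-fold (Prtn3) to 406-fold (Prss57) on OP9 and by 35.5-fold (Prtn3) to 295-fold (Mpo) on OP9-DLL1. By limma's moderated test 7 of 7 passed in each of these comparisons, where 28.8% and 28.2% of all 13374 tested genes passed as higher in cMoPs and 27.7% and 29.2% as lower. The members were chosen as progenitor genes, with earlier results of these data known, so this count is no independent check. Prss57 also entered the test only through its level in the cMoP libraries. The members' median log2 fold change was 7.46 on OP9 and 7.15 on OP9-DLL1, beside 0.01 and -0.01 for all tested genes. The size of the differences on OP9 depended on the monocyte library: without the first or the second on OP9, that of Mpo was 191-fold or 853-fold, that of Ctsg 95.1-fold or 326-fold and that of Prss57 146-fold or 1130-fold, while the other 4 moved by less than 1.5 times. On OP9-DLL1, Prss57 alone moved by more, from 211-fold to 331-fold or 134-fold without the first or the second monocyte library there. On OP9-DLL1 the library medians differed by -0.11 on the log2 scale, cMoPs minus monocytes. Scaling the libraries to a common median takes this shift out, which raises every difference between the cell types there by that size. In such bulk samples, a smaller share of cells that express a gene and less RNA in each cell cannot be told apart.

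**Figure D1:**
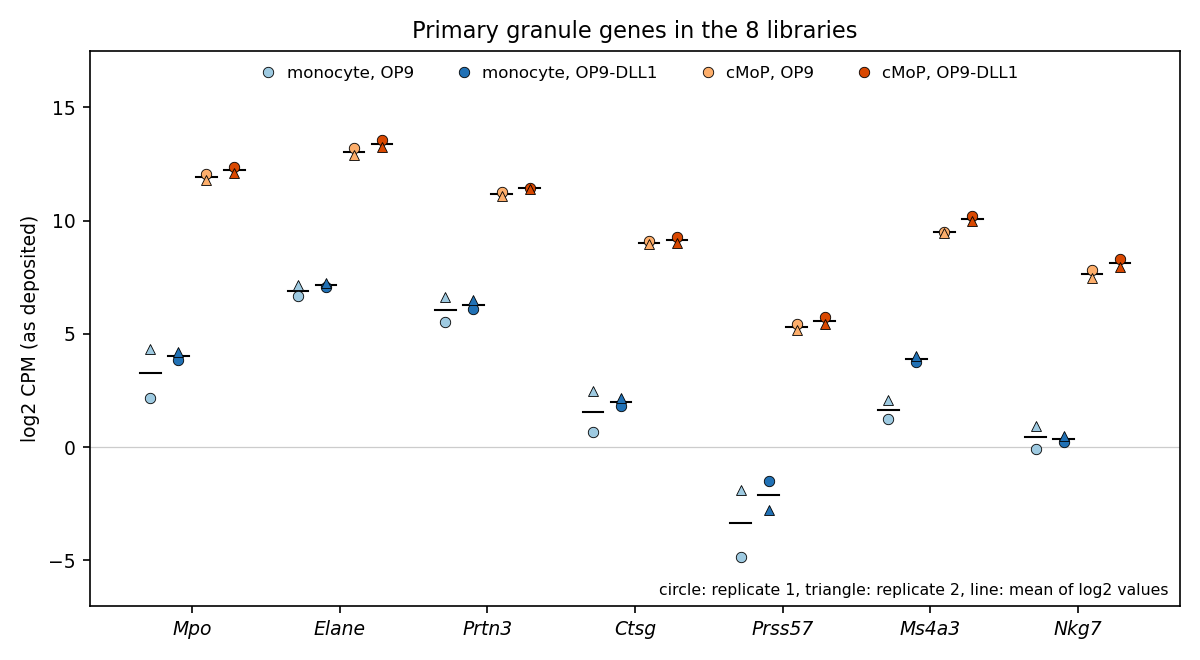
Deposited log2 CPM (y axis) of the 7 genes (x axis) in each library, coloured by group, with circles for replicate 1, triangles for replicate 2 and a line at the mean of the log2 values. Every cMoP library lies above every monocyte library for all 7 genes, from 35.7 CPM upward for Prss57 and from 7529 CPM upward for Elane.

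Mpo, on chromosome 11 (87793581 to 87804413, plus strand, GRCm38), encodes myeloperoxidase, the heme enzyme that makes hypochlorous acid in the phagosome. It was at 4.56 and 20.3 CPM in the monocyte libraries on OP9 and at 14.4 and 18.6 CPM in those on OP9-DLL1. In cMoPs it was at 4212 and 3591 CPM on OP9 and at 5277 and 4399 CPM on OP9-DLL1. The monocyte level was 0.319% of the cMoP level on OP9 and 0.34% on OP9-DLL1, and the first monocyte library on OP9 was the lowest of the 8. The log2 difference between cMoPs and monocytes was 8.66 ± 0.53 on OP9 (SE, adjusted p = 2.5e-06) and 8.21 ± 0.53 on OP9-DLL1 (adjusted p = 2.4e-06).

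Elane, on chromosome 10 (79886247 to 79888215, plus strand), encodes neutrophil elastase, which digests matrix and bacterial proteins and is mutated in inherited neutropenias. Monocytes held 102 and 143 CPM on OP9 and 135 and 151 CPM on OP9-DLL1. cMoPs held 9474 and 7529 CPM on OP9 and 11920 and 9865 CPM on OP9-DLL1. Per kilobase of exon, Elane ranked first among 13380 genes in all 4 cMoP libraries, and between 505 and 777 in the monocyte libraries. Its log2 difference was 6.13 ± 0.18 on OP9 and 6.25 ± 0.18 on OP9-DLL1 (adjusted p = 1e-07 in both).

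Prtn3 (chromosome 10, 79874476 to 79883174, plus strand) encodes myeloblastin, an elastase-like protease and the main autoantigen of a form of vasculitis. Monocytes kept on OP9 had 45.5 and 98.9 CPM, and those kept on OP9-DLL1 had 67.7 and 89.99 CPM. In cMoPs it was 2425 and 2186 CPM on OP9 and 2817 and 2725 CPM on OP9-DLL1. Prtn3 had the highest monocyte level relative to cMoPs, 3.13% on OP9 and 2.85% on OP9-DLL1, and with it the lowest log2 differences of the 7 genes, 5.10 ± 0.30 (adjusted p = 1.9e-06) and 5.15 ± 0.30 (adjusted p = 1.3e-06). Its annotated span overlaps that of Plppr3 and the library kit does not mark strand, so reads of the shared bases cannot be assigned to either gene.

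Ctsg (chromosome 14, 56099881 to 56102574, minus strand) encodes cathepsin G, a chymotrypsin-like protease from the locus that also holds mast cell protease and granzyme genes. Monocytes had 1.61 and 5.50 CPM on OP9 and 3.54 and 4.53 CPM on OP9-DLL1. cMoPs had 551 and 496 CPM on OP9 and 625 and 515 CPM on OP9-DLL1. The groups of the 2 cell types are far apart while those of the 2 stromal lines overlap in both. The log2 differences were 7.46 ± 0.44 on OP9 (adjusted p = 2.2e-06) and 7.15 ± 0.44 on OP9-DLL1 (adjusted p = 2e-06).

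Prss57 (chromosome 10, 79781474 to 79790961, minus strand) encodes another granule serine protease, with trypsin-like preference for arginine, and is the least abundant member. Its monocyte signal rested on 1 and 14 reads on OP9 and 17 and 7 reads on OP9-DLL1. In cMoPs it reached 43.2 and 35.7 CPM on OP9 and 54.0 and 42.9 CPM on OP9-DLL1. With so few monocyte reads, its log2 differences of 8.67 ± 0.81 (adjusted p = 2.6e-05) and 7.72 ± 0.81 (adjusted p = 4.5e-05) are the least certain. They fell to 5.13 and 5.30 on the log2(CPM + 1) scale, which damps low levels.

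Ms4a3 (chromosome 19, 11629496 to 11640851, minus strand) encodes a membrane protein spanning the bilayer several times, used to trace the offspring of granulocyte and monocyte progenitors. Monocytes kept on OP9 had 2.34 and 4.21 CPM, and those kept on OP9-DLL1 had 13.7 and 16.1 CPM. It was at 719 and 709 CPM in cMoPs on OP9 and at 1166 and 1012 CPM on OP9-DLL1. In both cell types the libraries on OP9-DLL1 lie above those on OP9. Between cell types the log2 difference was 7.83 ± 0.24 on OP9 (adjusted p = 1e-07) and 6.19 ± 0.24 on OP9-DLL1 (adjusted p = 2.2e-07).

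Nkg7 (chromosome 7, 43437073 to 43438249, plus strand) encodes a small membrane protein of cytotoxic granules, best known from NK and T cells. Monocytes had 0.958 and 1.93 CPM on OP9 and 1.18 and 1.41 CPM on OP9-DLL1. cMoPs had 224 and 178 CPM on OP9 and 321 and 249 CPM on OP9-DLL1. Its log2 difference was 7.20 ± 0.30 on OP9 (adjusted p = 5.2e-07) and 7.78 ± 0.30 on OP9-DLL1 (adjusted p = 2.4e-07). Of 18 NK and T cell markers, 4 were in the table (Ccl5, Gzmb, Klrk1 and Lck), and Ncr1, Klrb1c, Gzma, Prf1, Cd3e and the other 9 were not. Their summed level, mostly Ccl5, was 769 to 1543 CPM in monocytes and 29.0 to 51.2 CPM in cMoPs. Ccl5, a chemokine gene, was lower in cMoPs (-5.67 ± 0.28 on OP9), while Klrk1, the receptor NKG2D, was higher (2.57 ± 0.49, adjusted p = 0.0019, and 2.35 ± 0.49 on OP9-DLL1, adjusted p = 0.0029). Gzmb (1.93, adjusted p = 0.36) and Lck (1.86, adjusted p = 0.068) did not pass on OP9, and the median of the 4 was 1.90 on OP9 and 2.17 on OP9-DLL1. The part of NK and T cells in the level of Nkg7 was not tested.

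**Figure D2:**
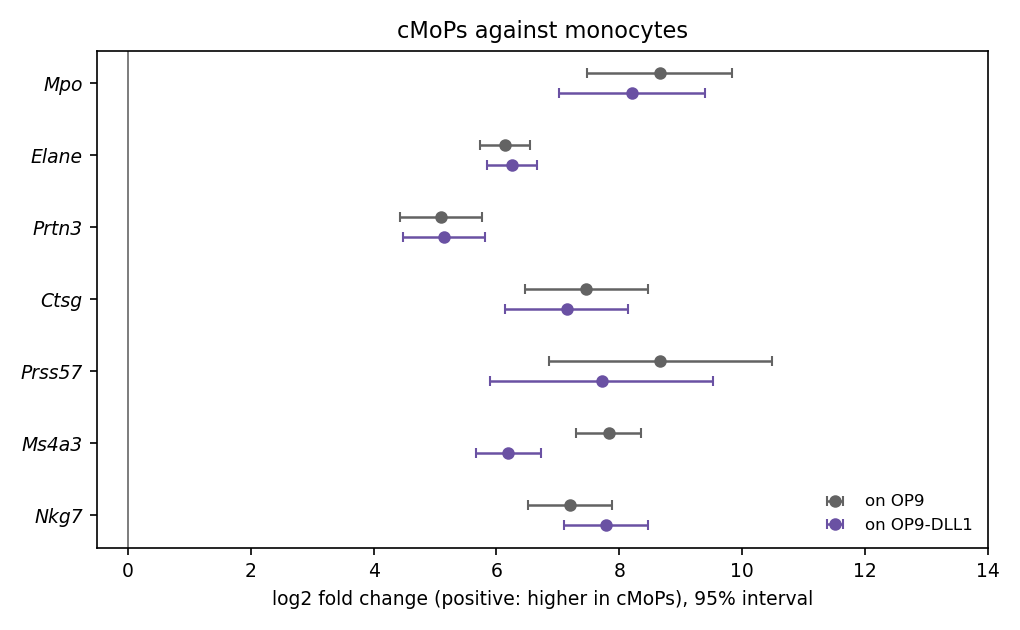
Log2 fold change between cMoPs and monocytes (x axis, positive where cMoPs are higher) with its 95% interval for the 7 genes (y axis), on OP9 in grey and on OP9-DLL1 in purple. All intervals lie above 4, Prss57 has the widest ones, and Ms4a3 is the only member whose intervals on the 2 stromal lines do not overlap.

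Together the 7 genes took 1.56% to 2.26% of all reads in the cMoP libraries and 0.0143% to 0.0277% in the monocyte libraries, and Elane alone gave 51.1% to 64.9% of the members' reads in each library. Levels of different genes were compared as CPM per kilobase of exon. In cMoPs on OP9 the order was Elane (8639 ± 1398, SD, n = 2), Prtn3 (1331 ± 97.5), Mpo (1139 ± 128), Ctsg (507 ± 37.7), Ms4a3 (379 ± 3.47), Nkg7 (220 ± 35.8) and Prss57 (13.9 ± 1.86), with no overlap between neighbours in that order. On OP9-DLL1 Ms4a3 (578 ± 57.8) and Ctsg (552 ± 75.7) overlapped, and the rest kept their order. With the length of the longest protein-coding transcript, an alternative chosen after the data were seen, Ms4a3 stood above Ctsg in cMoPs on OP9 as well (707 against 522). In monocytes on OP9 Elane (124 ± 29.5) and Prtn3 (41.7 ± 21.8) were again first and Prss57 (0.0535 ± 0.0585) last, while the libraries of Mpo, Ctsg, Ms4a3 and Nkg7, at means of 1.58 to 3.64, overlapped.

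Ms4a3 was the only member that passed as higher on OP9-DLL1 in monocytes. Ms4a3 rose 4.73-fold, a log2 fold change of 2.24 ± 0.24 (95% interval 1.71 to 2.77, adjusted p = 0.0013), and it passed in all 16 alternative analyses, with adjusted p from 2.1e-05 to 0.028. That is 1 of 7 members, where 3.36% of all tested genes passed as higher. It was also the only member with both OP9-DLL1 libraries above both OP9 libraries, an arrangement found in 24.2% of all tested genes. Its level on OP9-DLL1 was 1.37% of that in cMoPs on the same stroma, against 0.459% on OP9.

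The other 6 members did not pass in monocytes, although 5 of them had values above 0. Mpo differed by 0.76 ± 0.53 on the log2 scale (95% interval -0.42 to 1.95) and Prss57 by 1.24 ± 0.81 (-0.57 to 3.06). Elane (0.25, -0.16 to 0.66), Prtn3 (0.22, -0.45 to 0.89) and Ctsg (0.43, -0.57 to 1.43) had values nearer 0. Nkg7 differed by -0.08 (-0.76 to 0.61). The intervals of Mpo, Ctsg and Prss57 reach above 1, so with 2 libraries a group a doubling of these genes is not excluded.

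The first monocyte library on OP9 was below the second for 7 of 7 members, 1.40-fold for Elane, 4.46-fold for Mpo and 7.79-fold for Prss57. The 25 proliferation genes summed to 2035 CPM in the first and 3668 CPM in the second of these libraries, against 3191 and 3399 CPM for monocytes kept on OP9-DLL1 and 7626 to 8892 CPM for cMoPs. The part of proliferating cells in the members' levels was not tested. Without the second library of monocytes on OP9, 6 members passed as higher on OP9-DLL1 (Mpo, Elane, Prtn3, Ctsg, Prss57 and Ms4a3), and 2488 of all tested genes passed in either direction, against 855 with all libraries. Without the first, Ms4a3 alone passed and Mpo, Prtn3, Ctsg, Prss57 and Nkg7 had values below 0 (-0.24 to -0.58).

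**Figure D3:**
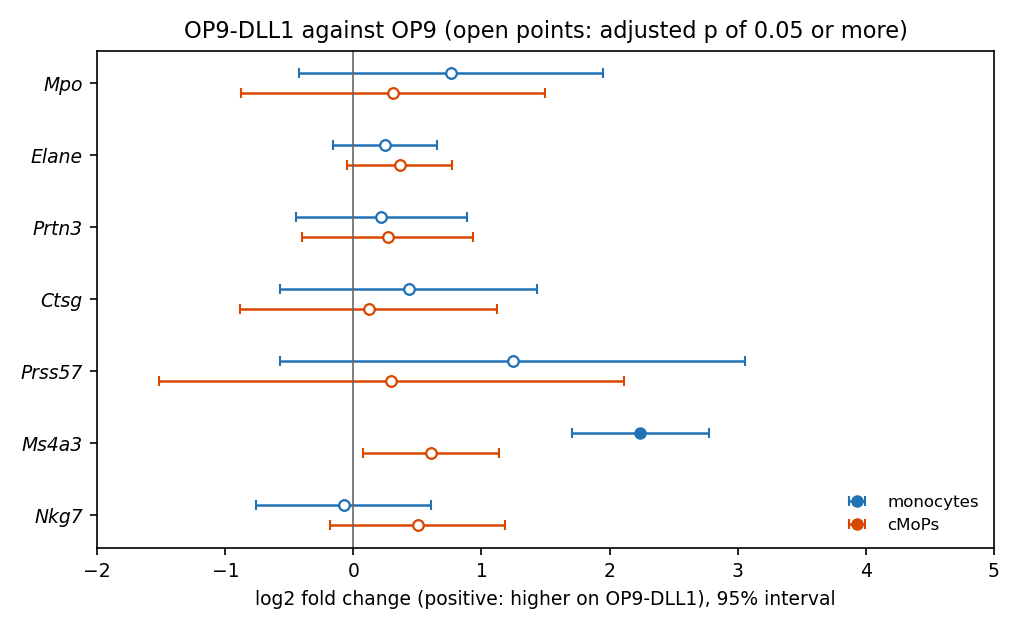
Log2 fold change between OP9-DLL1 and OP9 (x axis, positive where OP9-DLL1 is higher) with its 95% interval for the 7 genes (y axis), in monocytes (blue) and cMoPs (orange), with filled points for genes that passed. Ms4a3 in monocytes, at 2.24, is the only filled point, and 13 of the 14 values lie above 0.

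In cMoPs, 0 of 7 members passed for OP9-DLL1 against OP9 by limma's moderated test, where 0.464% of all tested genes passed as higher. The count was 0 with voom and 1 with weighted voom, and 1 member, Ms4a3, had an unadjusted p under 0.05. All 7 values were above 0, from 0.12 (Ctsg) to 0.61 (Ms4a3) on the log2 scale, beside 51.2% of all tested genes with a value above 0. In 5 members (Elane, Mpo, Ms4a3, Nkg7 and Prtn3) both OP9-DLL1 libraries lay above both OP9 libraries, which 25.0% of all tested genes showed. Ms4a3 differed by 0.61 ± 0.24 (95% interval 0.07 to 1.14, unadjusted p = 0.03, adjusted p = 0.44). Over its 16 alternatives the adjusted p ran from 0.0038 to 0.96, and it was under 0.05 in 4: weighted voom, the fit of the 4 cMoP libraries alone, and the fits without either monocyte library on OP9. For the same comparison, Ms4a3 has an adjusted p of 0.006 and Nkg7 one of 0.0994 in the authors' deposited table.

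Among the other members in cMoPs, Nkg7 differed by 0.50 ± 0.30 (-0.18 to 1.19, adjusted p = 0.68) and Elane by 0.36 ± 0.18 (-0.05 to 0.77, adjusted p = 0.6). Mpo (0.31, -0.88 to 1.49), Prtn3 (0.27, -0.40 to 0.93), Prss57 (0.30, -1.52 to 2.11) and Ctsg (0.12, -0.88 to 1.12) lay nearer 0. In both cMoP groups the first replicate was above the second for 7 of 7 members, by 1.01-fold to 1.29-fold, a spread similar in size to these differences. The intervals here rest on 1 spread per gene over all 8 libraries, which includes the gap between the monocyte libraries on OP9. In the authors' deposited table the intervals are narrower: -0.005 to 0.616 for Mpo, -0.020 to 0.551 for Prtn3, -0.037 to 0.611 for Prss57 and -0.148 to 0.380 for Ctsg.

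For a difference of the OP9-DLL1 responses between cMoPs and monocytes, the interaction term of the same limma fit, 0.0523% of all tested genes passed and 0 of the 7 members, as with voom and weighted voom. Ms4a3 had the largest gap, -1.64 ± 0.33 on the log2 scale (95% interval -2.39 to -0.88, unadjusted p = 0.00079, adjusted p = 0.18), which alone among the members had an unadjusted p under 0.05. Its adjusted p was 0.031 without the first and 0.0012 without the second monocyte library on OP9, where Mpo, Ctsg and Prss57 also passed. For Elane (0.11, -0.46 to 0.69) and Nkg7 (0.58, -0.39 to 1.54) the intervals include 0 and leave room for differences of either sign.

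Genes that handle the granule proteins did not move as a block with the members. Of 18 tested genes for packing, processing and sorting, 2 were higher and 11 lower in cMoPs on OP9 (median log2 fold change -0.46, beside 0.01 for all tested genes). Cst7, which encodes cystatin F, an inhibitor of cathepsin C, was higher in cMoPs by 4.38 ± 0.23 (283 against 13.99 CPM), and Cd63, a tetraspanin that sorts elastase to granules, by 1.72 ± 0.15. Ctsc, the gene of cathepsin C itself, was lower (-1.16 ± 0.14, 1296 against 2911 CPM), as was Lamp2, a lysosomal membrane protein (-1.09 ± 0.12). Srgn, the gene of serglycin, differed by -0.41 ± 0.14 (adjusted p = 0.029), a call that ended without either cMoP library on OP9, without the second monocyte library on OP9, without the mean-variance trend and with the 4 libraries alone.

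The enzymes that share the granule with the members were mostly lower in cMoPs. Of 17 tested lysosomal hydrolases, 2 were higher and 9 lower (median -1.01), among them the lysozyme genes Lyz2, which fell by 3.33 on the log2 scale (3340 against 33820 CPM), and Lyz1, which fell by 3.26. These lysozyme genes are near-identical neighbours and may share reads. Of 20 tested genes of the later secondary and tertiary granules 0 were higher and 15 lower (median -1.70), with Mmp8, a neutrophil collagenase, at -6.50 ± 0.36 and Cd177, a neutrophil surface protein, at -4.28 ± 0.27. Of 9 tested genes listed as protease inhibitors, 4 were higher, among them Serpinb1a, which blocks elastase, cathepsin G and myeloblastin (2.91 ± 0.27). Of the same list 2 were lower, Wfdc17 (-5.52 ± 0.27) and Cstb (-1.92 ± 0.17). Cstb encodes a cystatin, an inhibitor of cysteine proteases and not of serine proteases.

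Among the 25 tested transcription factors, 11 were higher and 7 lower in cMoPs on OP9 (median 0.38), the lower share being close to the 27.7% of all tested genes. Myb, a factor of early progenitors, was higher by 5.46 ± 0.34 (22.1 against 0.528 CPM), Sox4 by 4.29 ± 0.39 and Irf8, a monocyte lineage factor, by 1.68 ± 0.22. Gfi1, a repressor of the monocyte programme in granulocytes, was at 3.49 against 0.161 CPM (4.46 ± 1.16, adjusted p = 0.0094, and 0.058 without the first cMoP library on OP9). Spi1, the gene of PU.1, was lower (-1.26 ± 0.13), as was Zeb2, a repressor active in monocytes (-2.25 ± 0.12). Cebpa (13.2 against 10.3 CPM) and Cebpe (11.5 against 10.9 CPM), the C/EBP factors of granulocyte differentiation, did not pass on OP9, and both passed as higher in cMoPs on OP9-DLL1 (0.68 ± 0.23, adjusted p = 0.029, and 1.15 ± 0.23, adjusted p = 0.0025). The Cebpa call there ended without the second monocyte library or either cMoP library on OP9-DLL1.

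Heme is the cofactor of myeloperoxidase. Of 13 tested genes of heme synthesis and transport 4 were higher and 3 lower in cMoPs on OP9 (median 0.28), shares near the 28.8% and 27.7% of all tested genes. The genes of the first pathway enzymes were higher, Alas1 at 1.71 ± 0.15 and Alad at 1.64 ± 0.15. Of 19 tested early progenitor genes 8 were higher and 8 lower (median 0.25). Kit, Plac8 (2.57 ± 0.10) and Igfbp4 (4.57 ± 0.19) were among the higher, and Ptprc, the pan-leukocyte phosphatase CD45, fell by 1.81 on the log2 scale. The proliferation genes had the highest median of the related lists, 1.48, with the replication helicase genes Mcm7 at 3.21 ± 0.14 and Mcm2 at 3.47 ± 0.17. The median of the 7 members, 7.46, lies above the highest value of every list but the inhibitors and the early progenitor genes.

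**Figure D4:**
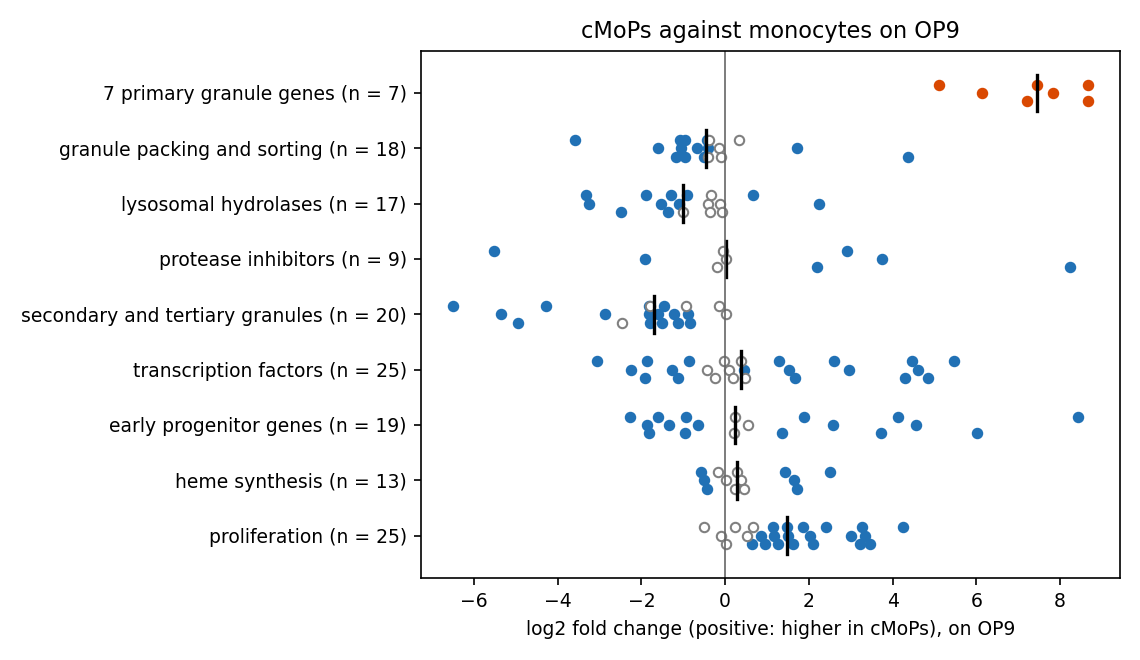
Log2 fold change between cMoPs and monocytes on OP9 (x axis) of each tested gene in the 7 primary granule genes and 8 related lists (y axis), with filled points for genes that passed, open points for the rest and a bar at each list's median. The members' median is 7.46, against -1.01 for the lysosomal hydrolases, -1.70 for the later granules and 1.48 for the proliferation genes.

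In monocytes, 18 of the 146 tested genes of these 8 lists (12.3%) passed for OP9-DLL1 against OP9, 10 higher and 8 lower, where 6.39% of all tested genes passed, 3.36% as higher and 3.03% as lower. Cd63 of the packing genes (-0.85 ± 0.15, adjusted p = 0.012) and the hydrolase Ctsd (-0.88 ± 0.20, adjusted p = 0.037) passed as lower. Of the 25 transcription factors, 5 were higher, with Irf8 at 1.53 ± 0.22 (adjusted p = 0.0055), Runx1 at 0.80 ± 0.15 (adjusted p = 0.015) and Nfe2 at 0.70 ± 0.12 (adjusted p = 0.012), and Egr1 was lower (-2.54 ± 0.38, adjusted p = 0.0062). Of the early progenitor genes 3 were higher, Plac8 among them (2.18 ± 0.10, adjusted p = 4e-05), and 2 were lower. Of the later granule genes Tcn2, a vitamin B12 carrier, was higher (1.14 ± 0.16, adjusted p = 0.0049), and the tertiary granule metalloprotease Adam8 (-0.80 ± 0.13, adjusted p = 0.0079), Arg1 (-2.91 ± 0.71, adjusted p = 0.044) and Padi4 (-0.63 ± 0.16, adjusted p = 0.048) were lower. The inhibitor gene Serpina3g passed as higher (adjusted p = 0.0055) at 0.298 and 0.223 CPM, with 0 reads on OP9. No heme synthesis or proliferation gene passed by limma-trend, voom or weighted voom, with 5 and 2 under an unadjusted p of 0.05.

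Of these 12 genes named for monocytes, Plac8 alone passed in all 16 alternatives. Egr1 passed in 15, Irf8 and Tcn2 in 14, Cd63, Adam8 and Serpina3g in 13, Runx1 and Nfe2 in 12, Arg1 in 9, Ctsd in 7 and Padi4 in 5. Without the mean-variance trend Cd63, Ctsd, Irf8, Runx1 and Nfe2 all failed to pass (adjusted p = 0.056 to 0.14), as they did without the second monocyte library on OP9-DLL1 (adjusted p = 0.054 to 0.26). In cMoPs the 1 gene of the 8 lists that passed, beside 0.77% of all tested genes, was Adam8 (-1.53 ± 0.13, adjusted p = 0.00086). Apart from Plac8, where the response was lower in cMoPs (-1.78 ± 0.14, adjusted p = 0.0052, passing in 8 of 15 alternatives, with adjusted p up to 0.12), no gene of these 8 lists passed for a difference of responses.

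Markers of other granule-bearing cells were summed beside these results. Of 15 neutrophil markers 13 were in the table (Ly6g was not), and they summed to 1652 to 2538 CPM in monocytes and 603 to 669 CPM in cMoPs. In cMoPs 5 were lower and 1 higher on OP9, where 27.7% of all tested genes were lower and 28.8% higher. On OP9-DLL1 4 were lower and 3 higher, near the 29.2% and 28.2% of all tested genes there. Of 15 mast cell, basophil and eosinophil markers 5 were in the table, with Cpa3, Fcer1a, Ms4a2, Epx and the other 6 absent, and summed to 23.8 to 72.9 CPM in monocytes and 44.8 to 65.2 CPM in cMoPs. On each stromal line 2 of these 5 were higher in cMoPs and 0 lower, beside the same shares of all tested genes. Their median log2 fold change was 1.42 on OP9 and 3.06 on OP9-DLL1. The 2 were Gata2 and Hdc on OP9, and Gata2 and Mcpt8 on OP9-DLL1, where Hdc was at -0.20. Gata2, a mast cell and progenitor factor, passed on OP9 (2.59 ± 0.88, adjusted p = 0.031, in 10 of 16 alternatives) and on OP9-DLL1 (4.24 ± 0.88, adjusted p = 0.0028). Of 16 stromal markers 8 were in the table, and their sum was 31.2 and 38.3 CPM for monocytes kept on OP9, 8.91 and 22.0 CPM for those kept on OP9-DLL1 and 3.31 to 6.797 CPM across the cMoP libraries. The part of such cells in the members' levels was not tested.

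Elane, Prtn3 and Prss57 lie on chromosome 10, with gaps of 3.1 kb between Elane and Prtn3 and 95.3 kb between Elane and Prss57. Among the 10 other tested genes within 100 kb of Elane, 5 were higher in cMoPs on OP9 and 0 lower, with a median log2 fold change of 0.90, where 28.8% of all tested genes were higher. The highest was Plppr3, which overlaps Prtn3 as noted, at 4.12 ± 0.29. The neighbours Ptbp1, a splicing factor, at 0.89 ± 0.12 and Wdr18, a ribosome assembly factor, at 1.24 ± 0.10 passed with smaller values. Med16 (0.34 ± 0.23) and R3hdm4 (0.04 ± 0.17), whose centres lie 14.6 and 28.4 kb from that of Elane, did not pass. Of the 4 tested genes between Prtn3 and Prss57, Ptbp1, E130317F20Rik and Palm had values of 0.89 to 1.07 (Palm did not pass, adjusted p = 0.069), and Plppr3 is the other.

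**Figure D5:**
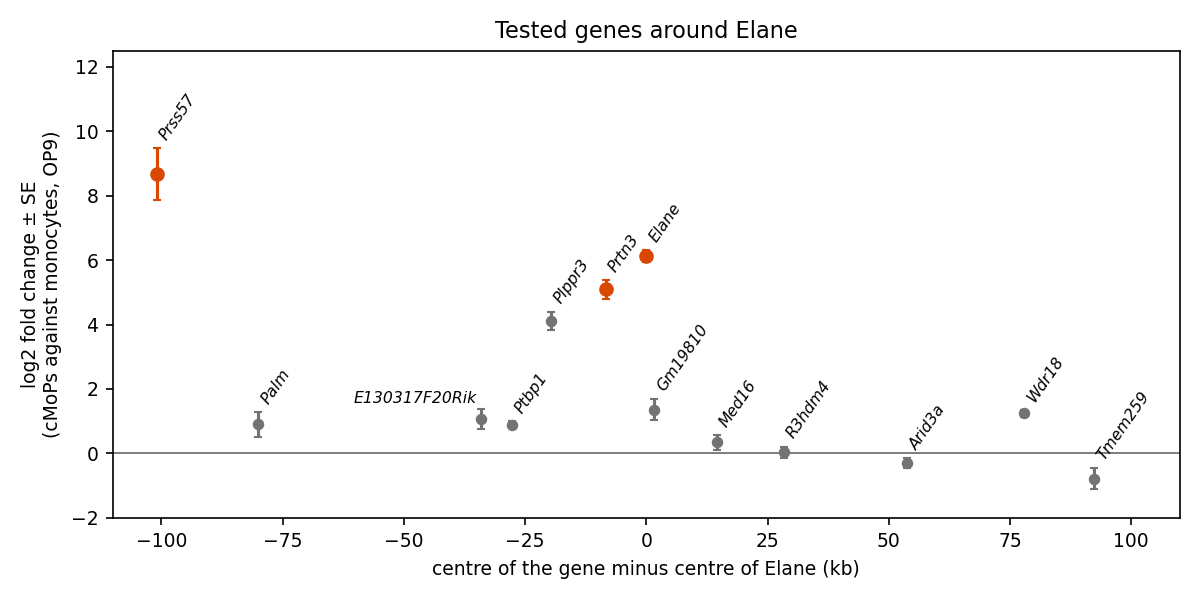
Log2 fold change ± SE between cMoPs and monocytes on OP9 (y axis) of Elane and the 12 tested genes within 100 kb, against the distance between gene centres in kb (x axis), with the 3 granule genes in orange and other genes in grey. Elane, Prtn3 and Prss57 stand at 5.10 to 8.67, and apart from Plppr3 the other genes lie between -0.78 and 1.36.

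The neighbours of the members elsewhere differed from locus to locus. Of 5 tested genes within 100 kb of Mpo, 3 were higher in cMoPs on OP9 and 1 lower (median 1.01). The higher were Rnf43, a ubiquitin ligase gene (3.55 ± 0.52, adjusted p = 0.00041), Tspoap1 (1.70 ± 0.50, adjusted p = 0.017) and Mks1 (1.01 ± 0.38, adjusted p = 0.045, in 4 of 16 alternatives), and Supt4a was lower (-0.70 ± 0.15, adjusted p = 0.0036). The single tested neighbour of Ctsg, the basophil protease gene Mcpt8, was at 1.42 ± 1.16 on OP9 (adjusted p = 0.32) and passed as higher in cMoPs on OP9-DLL1 (3.06 ± 1.16, adjusted p = 0.046, in 10 of 16 alternatives).

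Of 4 tested genes within 100 kb of Ms4a3, 3 were lower in cMoPs on OP9 and 1, Oosp1, was higher (1.31 against 0.0681 CPM, adjusted p = 0.0093). The lower include its family members Ms4a6d (-2.69 ± 0.14, 215 against 1401 CPM) and Ms4a6b (-3.46 ± 0.18, 39.0 against 429 CPM). On OP9-DLL1 both rose in cMoPs, by 0.99 ± 0.14 (adjusted p = 0.016) and 1.28 ± 0.18 (adjusted p = 0.015). These calls ended without the mean-variance trend and when any cMoP library was left out, except that Ms4a6b passed without the first on OP9. In monocytes Ms4a6d was at 0.44 (adjusted p = 0.11) and passed in 1 of 16 alternatives, without the first library on OP9 (adjusted p = 0.0048). Ms4a6b was at 0.62 (adjusted p = 0.079) and passed in 3, with the replicate block (adjusted p = 0.03), with voom (0.042) and without that library (0.013).

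Of 5 tested genes near Nkg7, 1 was higher and 1 lower in cMoPs on OP9. The lectin receptor genes Siglecg (2.07 ± 0.42, adjusted p = 0.022) and Cd33 (1.17 ± 0.28, adjusted p = 0.04) there were higher in monocytes on OP9-DLL1, where Nkg7 was at -0.08. Siglecg passed in 12 of 16 alternatives (adjusted p up to 0.15) and Cd33 in 6 (up to 0.26), and both calls ended without either monocyte library on OP9-DLL1.

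Likeness of pattern was measured as the root mean square difference of log2 CPM over the 8 libraries, each gene centred on its own mean, among 8952 named genes of at least 5 CPM in a group. Within the members, Ctsg and Nkg7 were the closest pair (0.315) and Prtn3 and Prss57 the farthest (1.70). Closest to the members' mean profile were Ubash3a (0.579), Phgdh (0.75), the first enzyme of serine synthesis, Slc43a1 (0.855), an amino acid transporter, Muc13 (0.885) and Mgl2 (0.968). Phgdh had means of 14.7 (OP9) and 13.03 (OP9-DLL1) CPM in monocytes, and of 698 and 721 CPM in cMoPs. Elane was closest to Phgdh (0.4) and Prtn3 to Adgrg3 (0.225), Nme4 (0.243) and Myb (0.258). The nearest gene to Ms4a3 was the lectin gene Mgl2 (0.675), at 0.533 and 2.98 CPM in monocytes and 54.6 and 90.9 CPM in cMoPs, also higher on OP9-DLL1 in its group means. The likeness is a description over libraries that share their groups, and the gap between the cell types makes up most of it.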

How the data were processed

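RNA from 8 mouse libraries was sequenced as read pairs of 150 bases from a SMARTer Ultra Low kit, per the labels' protocols. The submitters' processing notes name the build mm10 and the tools STAR 2.7.9a, featureCounts 2.0.3 of Subread, Salmon 1.5.2, limma, edgeR and bcl2fastq. Their annotation release is not given in the sources used here. Log2 CPM per library were deposited by the authors in 1 table, together with their log2 fold changes, p-values and a signed linear fold change (a score) for 4 comparisons. Of its 13430 entries, 42 repeat an identifier with the same values and were dropped. The deposited values carry 0.5 reads added to each gene, and whole reads were recovered for 100.0% of values in every library (tolerance 0.001 reads). They give the depth, and intervals over reads would cover counting error only.

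The test was limma-trend (limma 3.58.1, R 4.3.3), two-sided, on the deposited log2 values of all 8 libraries with 1 mean per group, genes of at least 1 CPM in 2 libraries and Benjamini-Hochberg adjustment over 13374 genes. A gene passed at an adjusted p under 0.05, and the script was tested on simulated data. No count test was used, since the deposited unit is log2 CPM. Alternatives were no filter, no trend, voom and weighted voom on recovered reads, libraries centred on their medians, log2(CPM + 1), only the 4 libraries compared, a replicate block, and each library left out. Positions and exon lengths are from GENCODE M21 (GRCm38), in which 13380 identifiers were found. The promoter windows are RefSeq's, on GRCm38.p6.

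The 7 members, all gene lists and the naming rule were chosen with earlier results of these data known. The rule names the 7 members, 14 control genes, up to 4 passing genes of each list by adjusted p (or up to 2 by lowest p), passing or nearest neighbours within 100 kb, and the 5 or 3 genes of closest pattern. Csf3r, Clec12a and others that the rule names are covered by the counts only. Ccl5, Klrk1, Gzmb, Lck, Hdc and the marker results of Gata2 and Mcpt8 were named after their values were seen.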

Additional observations from a re-analysis of the deposited data

How the results depend on the processing

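Of 553 values of the members under an alternative, 522 kept their direction and their side of the threshold, 14 newly passed, 17 changed sign and 0 lost a call. The calls between cell types held for 7 of 7 members in every alternative, on both stromal lines, and that of Ms4a3 in monocytes likewise. Of the 31 changes, 22 arose when a monocyte library on OP9 was left out. The cause was not tested. Members that passed for OP9-DLL1 against OP9 numbered 1 to 6 in monocytes and 0 to 1 in cMoPs when a library was left out, and 0 to 4 for the difference of responses. Weighted voom and the 4 libraries alone gave 1 in cMoPs.

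With a library left out, the response in monocytes ranged from -0.32 to 1.84 for Mpo, -0.34 to 0.78 for Prtn3, -0.46 to 1.32 for Ctsg, -0.24 to 2.72 for Prss57 and -0.58 to 0.43 for Nkg7, and in cMoPs from -0.022 to 0.26 for Ctsg. The difference of responses ranged from -1.53 to 0.63 for Mpo, -0.13 to 0.36 for Elane, -0.51 to 0.61 for Prtn3, -1.20 to 0.58 for Ctsg and -2.43 to 0.53 for Prss57, which was 0.17 on the log2(CPM + 1) scale. Cebpe and R3hdm4, cMoPs against monocytes on OP9, ranged from -0.15 to 0.32 and from -0.088 to 0.17.

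Over all tested genes, 164 to 2488 passed in monocytes (855 in the report), 31 to 315 in cMoPs (103) and 0 to 1124 for the difference (7), against 5500 to 7807 (7550) and 5956 to 8659 (7671) between cell types. With the replicate block these were 1058, 156, 11, 7674 and 7897, and the block changed no call of a member. Same-numbered replicates share only a number: the correlations of their deviations were 0.02 to 0.09. With 2 libraries a group, and 1 in an arm where a library is left out and assumed to vary like the other groups, changes of less than about the interval widths given cannot be seen. Among the members, depth limits only Prss57 in monocytes. Other named genes also rest on few or no reads in a group, such as Serpina3g, Hes1, Kit and Oosp1 in monocytes on OP9.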
